A study of Mus musculus with 8 samples.

Results

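A set of 7 genes that Sertoli cells are known to express under androgen control were followed here in the testis of mice given the plasticiser di-(2-ethylhexyl) phthalate (DEHP). They are Spinlw1 (the array's symbol for Eppin), Serpina5, Corin, Drd4, Tubb3, Gpd1 and Tsx, chosen by name with earlier results of these data known. The arrays carried 10 probes for these 7 genes, among 41174 probes for 19505 genes with a current symbol. Of the 10 probes, 9 passed the filter on low signal, and each of the 7 genes had at least 1 such probe.

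Sertoli cells stand on the wall of the seminiferous tubule and nurse the germ cells between them. Testosterone made by Leydig cells, outside the tubule, acts on Sertoli cells through a steroid receptor that binds DNA and changes the transcription of its target genes. Spermatogenesis does not run to completion without this signal, and genes that respond to it in Sertoli cells are used as a readout of androgen action. DEHP is known for lowering testosterone production in fetal rat testis.

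The 8 animals were adult male C57BL/6J mice, 18 weeks old at the start and 21 weeks old at sampling. The 4 DEHP mice received 200 mg/kg/day by gavage for 21 days in corn oil, and the 4 vehicle mice received the oil alone. Areas labelled as rich in Sertoli cells, in the middle layer of the tubule epithelium, were cut out of the frozen right testis with a laser, although the extraction protocol speaks of Leydig cells at this step. RNA of each mouse came from 1 capture cap, was amplified and was hybridised to Agilent arrays with 2 colours. Each DEHP mouse was set against 1 vehicle mouse on 2 arrays with the dyes swapped. Each pair takes the number of its DEHP mouse, so that pair 1 joined DEHP mouse 1 with vehicle mouse 2, pair 2 joined DEHP mouse 2 with vehicle mouse 3, pair 3 joined DEHP mouse 3 with vehicle mouse 4, and pair 4 joined DEHP mouse 4 with vehicle mouse 1. No androgen was given or removed in the study, so the arrays do not test whether the 7 genes answer to androgen in these mice.

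Between 48.8% and 58.3% of the 45018 spots on an array were well above background in each channel, none were saturated, and the number of arrays limits the precision. Of 14 Sertoli cell markers, 13 passed the filter. The exception was Gata4, with 2 probes that were well above background in 0 of 8 DEHP channels and in 2 and 0 of 8 vehicle channels. Germ cell markers were also present, with 7 of 8 spermatocyte markers and all 7 elongating spermatid markers passing. Each of those that passed was well above background in all 16 channels, so the captures held germ cell RNA as well. Passing alone is common, since 14306 of the 19505 genes with a current symbol had a probe that passed. Of 8 Leydig cell markers, 4 passed, and their summed intensity ranged from 2749 to 11410 in the DEHP mice and from 2691 to 10820 in the vehicle mice. Most of that sum was Insl3, with a mean log2 intensity of 12.10 in DEHP and 12.21 in vehicle mice. The other Leydig markers reached at most 8.83 in either group. In such RNA of many cells, fewer cells of a type and less RNA per cell cannot be told apart.

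The stretches below show the promoters among the 7 genes that hold letters of the motif bound by steroid receptors. The motif searched was the steroid receptor palindrome AGAACA, any 3 bases, then TGTTCT, which reads the same on both strands, in windows of 300 bases around each start site (RefSeq promoters, GRCm38.p6). Of the 7 genes, 6 had an entry there, all but Gpd1. Allowing 2 mismatches in the 12 fixed letters, 1 of the 6 windows held a match, that of Eppin, and 1.84% of 32851 promoters did. The match began 94 bases before the start site at chr2:164593651-164593665 on the minus strand. Its shorter arm, AGAACA or TGTTCT on either strand, is common (19% of promoters). It occurred in the windows of Eppin, 17 bases after the start site, and of Serpina5, 216 bases before it, and in none of the windows of Tubb3, Drd4, Tsx and Corin. Capitals mark the match of 15 letters in the stretch of Eppin (chr2:164593611-164593705, minus strand) and the 6-letter arm in that of Serpina5 (chr12:104100863-104100942, plus strand). A match of letters is a description and not a measured binding site.

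Eppin: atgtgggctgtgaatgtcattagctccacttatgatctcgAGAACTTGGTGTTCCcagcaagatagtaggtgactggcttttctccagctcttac
Serpina5: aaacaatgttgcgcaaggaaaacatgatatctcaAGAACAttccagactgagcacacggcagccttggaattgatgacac

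None of the 7 genes differed between DEHP and vehicle mice beyond the spread between pairs. In limma on the 4 pair means, 0 of 7 had an adjusted p under 0.05, and so did 0 of the 22972 probes tested (0%), with a smallest adjusted p of 0.921. Without adjustment, 0 of the 7 and 1192 of all tested probes (5.19%) had a p under 0.05. At the brightest tested probe of each gene, the mean log2 ratio of DEHP over vehicle lay above 0 for 7 of 7 genes. It ran from 0.028 for Tsx to 0.25 for Drd4, with a median of 0.13. The count was 5 of 7 with DEHP in Cy5 alone. It was 6 of 7 with DEHP in Cy3 alone, with array weights, and without pair 1, 2 or 4. The second Drd4 probe had a mean of -0.041. The genes were chosen with earlier results of these data known, so the count is a description. Of all tested probes, 48.9% had a mean above 0, and their median was -0.0026. The ratio of Drd4 corresponds to 1.19-fold, with a 95% interval from 0.892 to 1.59, and that of Serpina5 to 1.11-fold (0.786 to 1.58). Single pairs moved these values, and the mean of Drd4 was 0.084 without pair 2 and 0.42 without pair 4. The median over the 7 genes was 0.068 without pair 1. The same mice give all 7 values, so the genes are not independent of each other. By pair, the median over the 7 genes was 0.20, 0.095, 0.0061 and 0.017 for pairs 1 to 4.

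**Figure D1:**
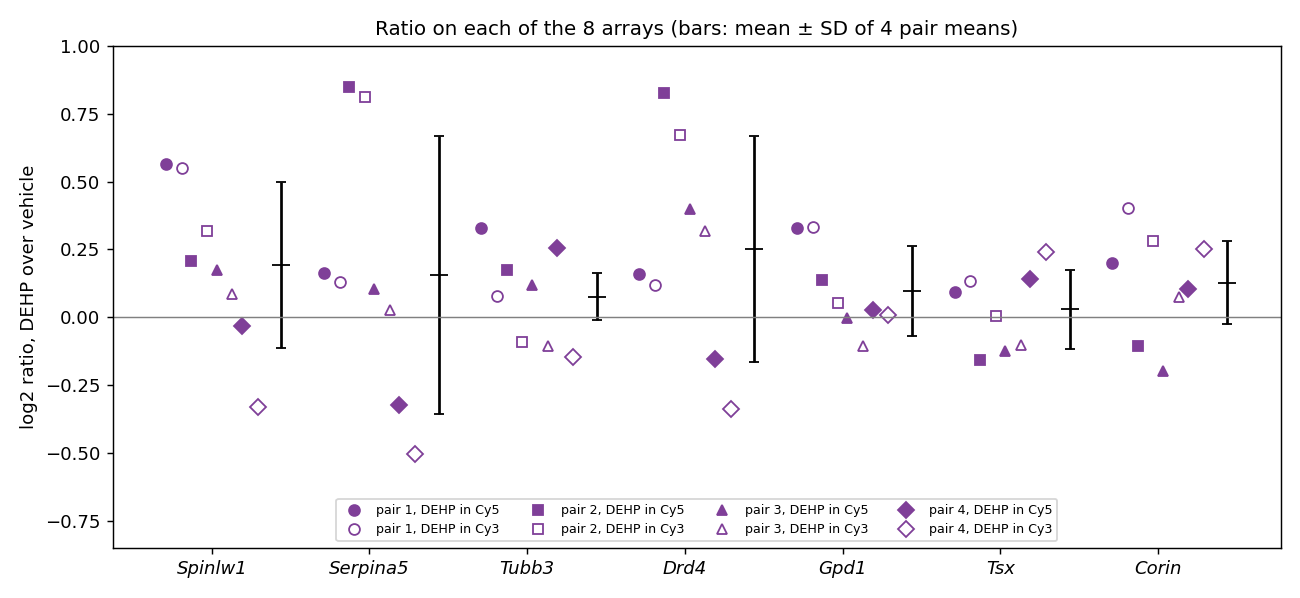
Log2 ratio of DEHP over vehicle (vertical axis) for the 7 genes (horizontal axis) on each of the 8 arrays, with 1 marker shape per mouse pair, filled for DEHP in Cy5 and open for DEHP in Cy3, and bars for the mean ± SD of the 4 pair means. Pair 2 stands highest for Serpina5 and Drd4, pair 4 lies below 0 for Spinlw1, Serpina5 and Drd4, and for Tubb3 filled markers lie above open ones in every pair.

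Spinlw1 and Serpina5 code for inhibitors of proteases in the reproductive tract. The product of Spinlw1 is a protein with a WAP and a Kunitz domain that coats sperm. On the log2 intensity scale its level was 12.78, 12.99, 12.96 and 12.92 in DEHP mice 1 to 4, and 13.10, 12.23, 12.73 and 12.83 in vehicle mice 1 to 4. The DEHP mice lay close together, inside the range of the vehicle mice, among which mouse 1 was highest and mouse 2 lowest of all 8. The log2 ratio was 0.19 ± 0.31 (SD, n = 4 pairs), with a 95% interval from -0.13 to 0.51 and an adjusted p of 0.928 in limma. The mean was 0.070 without pair 1 and 0.32 without pair 4. Pairs 1 to 4 gave 0.56, 0.26, 0.13 and -0.18, and the 2 dye orientations agreed in sign in all 4 pairs. The probe lies at chr2:164329000-164329059 in mm7, the build of the array design, as do the other probe positions given here. No annotation of that build was used, so the exon or untranslated region under a probe is not given.

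Serpina5 codes for protein C inhibitor, a serpin that blocks serine proteases. Its level on the log2 scale was 10.20, 11, 10.72 and 10.67 in DEHP mice 1 to 4, and 11.08, 10.05, 10.17 and 10.66 in vehicle mice 1 to 4. The groups overlapped over almost their whole range, with vehicle mouse 1 again highest and vehicle mouse 2 lowest. The log2 ratio was 0.16 ± 0.51 (SD, n = 4 pairs), with a 95% interval from -0.35 to 0.66 (adjusted p = 0.957, limma). Pair 2 stood at 0.83 and pair 4 at -0.41, while pairs 1 and 3 gave 0.15 and 0.065. Without pair 2 the mean was -0.068, so the sign of the mean rests on that pair. Larger spreads between pairs were rare, since 96.9% of tested probes had a smaller SD. In the same pair the 2 arrays gave 0.85 and 0.81, so the dyes differed far less than the pairs did. The 4 Leydig markers tested also had a high median log2 ratio there, 1.26 in pair 2 against values from -0.85 to -0.23 in the other pairs. They did not all move alike, with 2.36 for Insl3, 1.54 for Hsd3b1, 0.98 for Star and 0.070 for Cyp17a1 in pair 2. The macrophage marker Lyz2 was as high there, at 1.40, while the median of the macrophage markers was 0.0080. Pair 2 was also the highest pair for Drd4. The part of Leydig cell RNA in the values of Serpina5 or Drd4 was not tested.

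The genes most like each inhibitor in level over the 8 mice were found among 19183 probes of other genes. For Spinlw1 they were H2aw (Pearson r = 0.982 over 8 mice) and Ftmt (r = 0.959), and for Serpina5 they were Atp1b1 (r = 0.974) and Ct55 (r = 0.973). The 8 mice stood in the same order for Spinlw1 and Serpina5 (Spearman rho = 1, Pearson r = 0.84, n = 8 mice), which share the libraries. Of 17 other WAP and Kunitz inhibitor genes, mostly from the cluster around Spinlw1, 8 were on the array and 5 passed the filter. They had 4 means above 0 and 1 below, a median log2 ratio of 0.061, and 0 unadjusted p under 0.05. The 1 below was near background and passed the filter through 4 of 8 vehicle channels alone, with 3 of 8 DEHP channels. Wfdc3 (0.13 ± 0.22, SD, n = 4 pairs) and Wfdc15a (0.13 ± 0.23, SD, n = 4 pairs) had the smallest p of the 5 genes. Both were highest in pair 1, at 0.42 and 0.47, as Spinlw1 was. Of 18 other clade A serpins, 5 passed the filter, with 2 means above 0 and 3 below and a median of -0.015. The smallest p there were those of Serpina10 (0.070 ± 0.037, SD, n = 4 pairs) and Serpina9 (0.058 ± 0.064, SD, n = 4 pairs), neither under 0.05 before adjustment. The Serpina9 probe was well above background in only 7 of 8 DEHP and 5 of 8 vehicle channels.

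The letters of 3 probes follow, each with the channels in which it was well above background. The letters themselves do not show which probes gave signal. The second Serpina5 probe (chr12:101598175-101599524) covers 1350 bases of genome with its 60 letters and was well above background in no channel, so it gave no test. The second Gpd1 probe (chr15:99707784-99708471) covers 688 bases and was above background in 3 of 8 DEHP and 4 of 8 vehicle channels. The main Drd4 probe (chr7:137712047-137712106) was above background in all channels.

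Serpina5, second probe: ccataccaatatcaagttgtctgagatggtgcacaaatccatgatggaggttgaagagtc
Gpd1, second probe: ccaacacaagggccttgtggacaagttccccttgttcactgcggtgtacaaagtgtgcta
Drd4, main probe: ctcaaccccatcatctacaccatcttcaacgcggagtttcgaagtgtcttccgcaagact

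Corin codes for a membrane-bound serine protease that cuts the precursor of atrial natriuretic peptide into its active form. Its log2 level was 7.19, 7.29, 7.11 and 7.21 in DEHP mice 1 to 4, and 7.03, 6.89, 7.20 and 7.17 in vehicle mice 1 to 4. The DEHP mice and vehicle mice 3 and 4 lay together, and vehicle mice 1 and 2 lay below them. The log2 ratio was 0.13 ± 0.15 (SD, n = 4 pairs), with a 95% interval from -0.064 to 0.32 (adjusted p = 0.925, limma). It was 0.30, 0.088, -0.063 and 0.18 in pairs 1 to 4. The dyes did not agree on its size, since the mean was -0.00044 on the arrays where Cy5 marked DEHP and 0.25 where Cy3 did. The Cy5 and Cy3 orientations were each scanned as a separate group of 4 arrays, so a dye effect and a scan effect cannot be told apart. The probe lies at chr5:71671159-71671218.

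Of 8 genes for natriuretic peptides, their receptors and processing enzymes, 6 passed the filter, 2 with a mean above 0 and 4 below, and the median log2 ratio was -0.036. The peptide precursor Nppa, whose product Corin cuts, stood at -0.036 ± 0.046 (SD, n = 4 pairs). Furin, a convertase, and Npr2, a receptor, had the smallest p, with -0.17 ± 0.27 and 0.057 ± 0.028 (SD, n = 4 pairs), and neither p was under 0.05 before adjustment. The Npr2 probe was well above background in only 6 of 8 DEHP and 3 of 8 vehicle channels. The genes most like Corin over the 8 mice were Spz1 (r = 0.977) and Mapk9 (r = 0.963).

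Drd4 codes for a dopamine receptor coupled to inhibitory G proteins. Its log2 level at the main probe was 10.15, 10.19, 10.29 and 10.16 in DEHP mice 1 to 4, and 10.41, 10.01, 9.44 and 9.93 in vehicle mice 1 to 4. The DEHP mice fell within a narrow band, above vehicle mice 2, 3 and 4 and below vehicle mouse 1. All 4 DEHP mice stood above all 4 vehicle mice for none of the 7 genes, as for 0.84% of tested probes. The log2 ratio of Drd4 was 0.25 ± 0.42 (SD, n = 4 pairs), with a 95% interval from -0.17 to 0.67 (adjusted p = 0.928, limma). Pairs 1 to 4 gave 0.14, 0.75, 0.36 and -0.25, and both dyes gave the same sign in each pair.

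The second Drd4 probe (chr7:137713322-137713381), above background in 6 of 8 channels of each group, did not bear out the sign. Its log2 ratio was -0.041 ± 0.37 (SD, n = 4 pairs; adjusted p = 0.992, limma), with -0.13, 0.48, -0.12 and -0.39 in pairs 1 to 4. The mouse order at its ends was nevertheless the same, with vehicle mouse 1 highest and vehicle mouse 3 lowest at both probes. Of the other dopamine receptors only Drd2 passed the filter, and it stood at -0.0035 ± 0.015 (SD, n = 4 pairs), while the probes for Drd1, Drd3 and Drd5 were well above background in at most 3 of 8 channels of either group. The genes most like Drd4 over the 8 mice were Pdzd2 (r = 0.944) and Pipox (r = 0.939).

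Tubb3 codes for a beta tubulin best known from neurons. It is the only one of the 7 with repeated spots, 10 on each array. Its log2 level was 8.43, 7.96, 8.07 and 8.04 in DEHP mice 1 to 4, and 7.98, 8.23, 7.92 and 8.06 in vehicle mice 1 to 4. DEHP mouse 1 was highest and the mouse it was paired with, vehicle mouse 2, came next, so pair 1 stood above the other pairs in both of its mice, and the groups overlapped. The log2 ratio was 0.076 ± 0.087 (SD, n = 4 pairs), with a 95% interval from -0.072 to 0.22 (adjusted p = 0.936, limma). It was 0.20, 0.041, 0.0061 and 0.055 in pairs 1 to 4. All 4 pairs lay above 0, as for 6.39% of tested probes.

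That agreement of the pairs did not extend to the arrays. Where Cy5 marked DEHP the mean log2 ratio of Tubb3 was 0.22, and where Cy3 did it was -0.067, so 5 of 8 arrays lay above 0. Spots within an array were close, with an SD from 0.047 to 0.099, so the gap between dyes was larger than the spread between spots. The probe lies at chr8:122062871-122062930. The genes most like Tubb3 over the 8 mice were Sgk3 (r = 0.994) and Ppp4r3a (r = 0.976).

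Of 7 other beta tubulins, 6 passed the filter, 3 with a mean above 0 and 3 below, with a median log2 ratio of -0.037. Tubb2a (-0.42 ± 0.40, SD, n = 4 pairs) and Tubb5 (-0.36 ± 0.32, SD, n = 4 pairs) lay below 0 in all 4 pairs, as 6.96% of tested probes did. Their unadjusted p were 0.0430 and 0.0368, and their adjusted p was 0.921 each (limma). They code for closely similar proteins, and the array does not show how far their probes take up each other's RNA.

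Gpd1 codes for the cytosolic glycerol-3-phosphate dehydrogenase, which links glycolysis to glycerolipid synthesis. At its main probe (chr15:99710148-99710207) the log2 level was 9.68, 9.92, 10.12 and 9.94 in DEHP mice 1 to 4, and 9.92, 9.35, 9.83 and 10.17 in vehicle mice 1 to 4. The groups overlapped, with vehicle mouse 4 highest and vehicle mouse 2 lowest. The log2 ratio was 0.097 ± 0.17 (SD, n = 4 pairs), with a 95% interval from -0.10 to 0.30 (adjusted p = 0.942, limma). It was 0.33, 0.095, -0.055 and 0.017 in pairs 1 to 4, with a mean of 0.019 without pair 1. The second probe was near background, well above it in 3 of 8 DEHP and 4 of 8 vehicle channels. It passed the filter through the vehicle channels alone. The probe was above 0 in all 4 pairs and on all 8 arrays, as 1.75% of the probes tested on all 8 arrays were. Its log2 ratio of 0.056 ± 0.038 (SD, n = 4 pairs; adjusted p = 0.945, limma) was small.

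Of 8 other genes of glycerol phosphate metabolism, 7 passed the filter, 3 with a mean above 0 and 4 below, and the median log2 ratio was -0.023. Gpd1l, a relative of Gpd1, stood at 0.036 ± 0.0087 and Agpat2, an acyltransferase of glycerolipid synthesis, at 0.072 ± 0.24 (SD, n = 4 pairs), neither with a p under 0.05 before adjustment. The Gpd1l probe was near background, well above it in 4 of 8 DEHP and 3 of 8 vehicle channels, so its small SD is no sign of a precise ratio. Gpd2, the mitochondrial partner of Gpd1, stood at -0.094 ± 0.45 (SD, n = 4 pairs). The genes most like Gpd1 over the 8 mice were Cldn34b2 (r = 0.963) and Kctd15 (r = 0.949).

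Tsx is an X-linked gene next to the X-inactivation centre, first described for its testis-specific transcript. Its log2 level was 6.37, 6.47, 6.38 and 6.43 in DEHP mice 1 to 4, and 6.24, 6.26, 6.55 and 6.49 in vehicle mice 1 to 4. The levels of Tsx, Corin and Tubb3 depended on the background correction, and when it was fitted with the few bright-background spots included, the mean over the 8 mice was 7.17 in place of 6.40 for Tsx, 7.72 in place of 7.14 for Corin and 8.47 in place of 8.09 for Tubb3. On the scale used, the DEHP mice lay in a narrow band between vehicle mice 1 and 2 below and vehicle mice 3 and 4 above. The probe was well above background in all channels but dim. Its intensities of 75.7 to 93.7 included the offset of 50, which draws ratios and differences between mice toward 0 at this level. The log2 ratio was 0.028 ± 0.15 (SD, n = 4 pairs), with a 95% interval from -0.16 to 0.21 (adjusted p = 0.985, limma). It was 0.11, -0.077, -0.11 and 0.19 in pairs 1 to 4, and the direction of the mean was not stable. With an offset of 10 the mean was 0.060, and with the ratio of the extraction software it was 0.13. The authors' deposited ratios were -0.11, -0.32 and 0.50 in pairs 2 to 4. The probe (chrX:98741952-98743399) covers 1448 bases of genome with its 60 letters. Of 7 neighbours on the X chromosome, 4 passed the filter, 1 with a mean above 0 and 3 below (median -0.055), and Chic1 (-0.049 ± 0.083) and Rlim (-0.061 ± 0.19, SD, n = 4 pairs) had the smallest p, neither under 0.05. The genes most like Tsx over the 8 mice were Ints3 (r = 0.969) and Ap4e1 (r = 0.947).

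**Figure D2:**
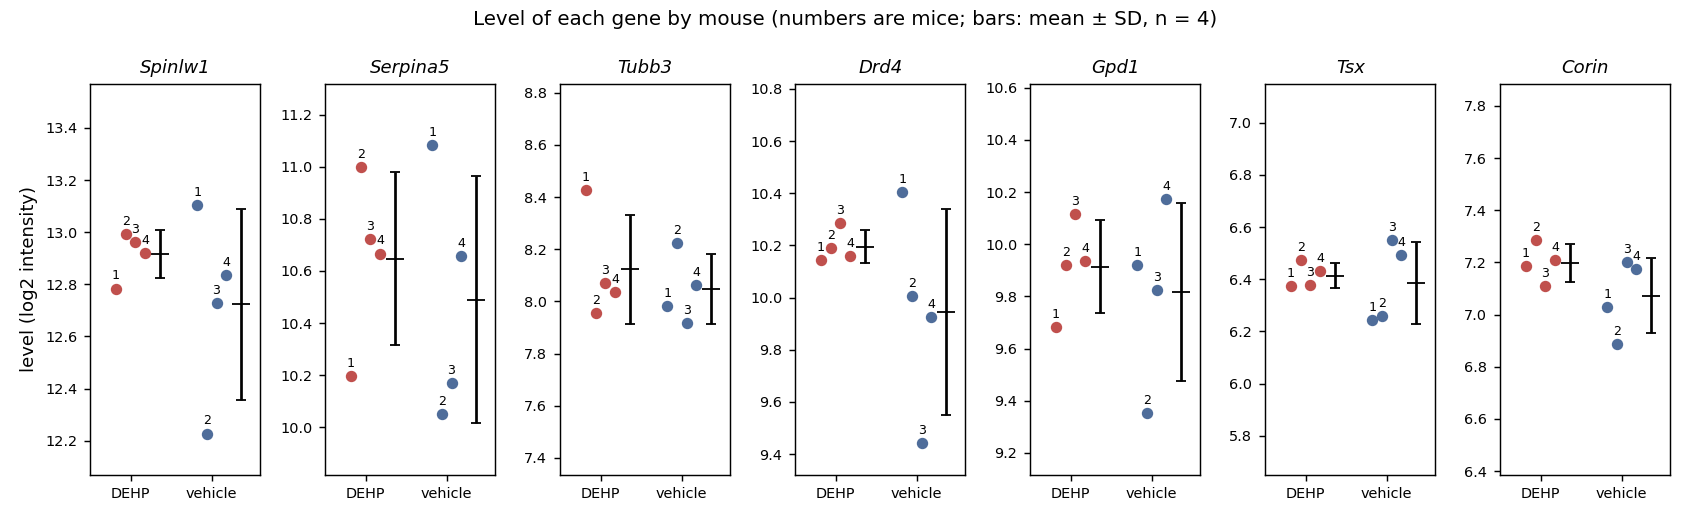
Level of each gene (vertical axes, log2 intensity, each spanning the same number of log2 units) in the 4 DEHP and 4 vehicle mice (horizontal axes), with points numbered by mouse and bars for the mean ± SD, n = 4. The groups overlap for each of the 7 genes, and the vehicle mice are spread more widely than the DEHP mice for all but Tubb3.

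The vehicle mice varied more than the DEHP mice for 6 of the 7 genes, all but Tubb3. The SD of the log2 level was 0.092 in DEHP and 0.37 in vehicle mice for Spinlw1, 0.33 and 0.47 for Serpina5, and 0.063 and 0.40 for Drd4. It was 0.18 and 0.34 for Gpd1, 0.047 and 0.16 for Tsx, and 0.073 and 0.15 for Corin, against 0.21 and 0.13 for Tubb3. Over all tested probes, 52.4% had the larger SD among vehicle mice, and the median SD was 0.14 in either group. Vehicle mouse 2 was the lowest of 8 for 4 of the 7 genes (Spinlw1, Serpina5, Gpd1 and Corin), and it was lowest for 13.5% of tested probes. Vehicle mouse 1 was the highest for Spinlw1, Serpina5 and Drd4, and it was highest for 19.3% of tested probes. No test was made of these spreads.

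Averaged over the 7 genes after centring each on its mean of 8 mice, vehicle mouse 2 stood at -0.28 and vehicle mouse 3 at -0.16 on the log2 scale. Vehicle mice 1 and 4 stood at 0.12 and 0.053, and DEHP mice 1 to 4 at -0.021, 0.13, 0.10 and 0.060. The Sertoli markers, centred the same way, also had their lowest mean in vehicle mouse 2 (-0.175) and their highest in DEHP mouse 2 (0.175). That low place was not particular to the Sertoli list. Vehicle mouse 2 was also lowest for the peritubular myoid markers (-0.164) and the endothelial and blood markers (-0.094). The other marker lists were lowest in other mice. The 13 Sertoli markers had 12 means above 0 and 1 below, where 48.9% of all tested probes had a mean above 0. Their median log2 ratio was 0.10 by gene, near that of the 7 genes, with 0.15, 0.22, -0.070 and 0.022 in pairs 1 to 4. Only 10 of the 13 were well above background in all 16 channels. Gata1, at 0.016, counts as above 0 though its probe was well above background in only 2 of 8 DEHP and 4 of 8 vehicle channels. The markers share the same mice, so the count is a description. Of the Sertoli markers, Dhh, a hedgehog ligand, at 0.28 ± 0.059 and the defensin gene Defb19 at 0.26 ± 0.19 (SD, n = 4 pairs) had an unadjusted p under 0.05, and their adjusted p was 0.921 (limma). The part of Sertoli cell content in the ratios of the 7 genes was not tested. The elongating spermatid markers had a median of 0.17 (6 of 7 above 0) and the spermatocyte markers -0.061 (1 of 7 above 0). The peritubular myoid markers had 0.085 (3 of 5 above 0), the round spermatid markers -0.068 (3 of 7), the spermatogonial markers -0.053 (2 of 6), the macrophage markers -0.043 (2 of 6), the endothelial and blood markers 0.14 (2 of 4) and the Leydig markers -0.072 (1 of 4). The spermatogonial marker Kit (-0.011) and the macrophage marker Cd68 (-0.029) were near background. Both passed the filter through 4 of 8 vehicle channels alone, with 1 and 0 of 8 DEHP channels, so their place below 0 carries no weight.

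**Figure D3:**
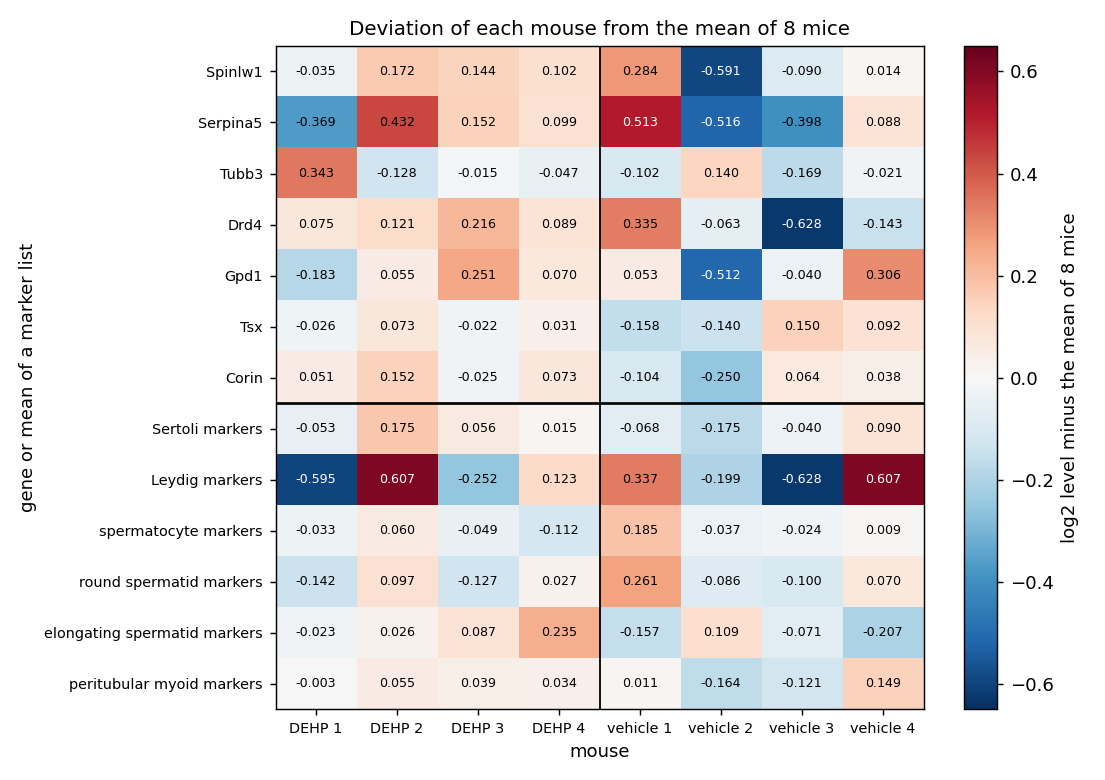
Deviation of each mouse (horizontal axis) from the mean of the 8 mice, in log2 units given by colour and by the number in each cell, for the 7 genes and for the mean of 6 marker lists (vertical axis). Vehicle mouse 2 is lowest for Spinlw1, Serpina5, Gpd1 and Corin. It also has the lowest mean of the Sertoli markers (-0.175) and of the peritubular myoid markers (-0.164). The Leydig markers have the widest range.

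The 7 genes did not all follow one order of mice. By Pearson r, the closest pairs after Spinlw1 with Serpina5 were Tsx with Corin (r = 0.81, rho = 0.67) and Spinlw1 with Gpd1 (r = 0.80, rho = 0.52, n = 8 mice each). By Spearman rho they were Drd4 with Spinlw1 (rho = 0.86, r = 0.45) and Drd4 with Serpina5 (rho = 0.86, r = 0.64). Drd4 and Tsx had the lowest r (r = -0.65, rho = -0.60), and Tubb3 had a negative r with 5 of the other 6 genes, all but Drd4 (r = 0.20). These 21 correlations share the same 8 libraries and are given as description. The DEHP and vehicle mouse of a pair were read on the same arrays, so their levels share array effects and are not independent. The same holds for the orders of mice and the closest genes given above.

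Other genes of androgen action showed no common direction. Of 8 further genes linked to androgen action in Sertoli cells, 7 passed the filter, 2 with a mean above 0 and 5 below, and the median log2 ratio was -0.059. Rhox5, a homeobox gene that is a standard androgen target in Sertoli cells, had log2 levels of 12.46, 13, 12.71 and 13.08 in DEHP mice 1 to 4 and of 13.49, 12.37, 12.52 and 12.91 in vehicle mice 1 to 4. Vehicle mouse 1 was its highest and vehicle mouse 2 its lowest, as for Spinlw1 and Serpina5, and its log2 ratio was -0.011 ± 0.38 (SD, n = 4 pairs; adjusted p = 0.995, limma). Tjp1, a tight junction scaffold, and B4galnt1, a ganglioside synthase, had the smallest p of that list, with -0.42 ± 0.42 and -0.12 ± 0.092 (SD, n = 4 pairs), and neither p was under 0.05 before adjustment.

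A list of folding partners and coregulators of steroid receptors, with the enzyme Srd5a1, had 15 genes that passed the filter. They had 6 means above 0 and 9 below, with a median log2 ratio of -0.048. Hsp90aa1, a chaperone that holds steroid receptors ready for hormone, had log2 levels of 16.15, 16.13, 16.15 and 16.16 in DEHP mice 1 to 4 and of 16.25, 16.38, 16.26 and 16.36 in vehicle mice 1 to 4. All 4 DEHP mice lay below all 4 vehicle mice, as for 1.12% of tested probes, and the log2 ratio was -0.17 ± 0.069 (SD, n = 4 pairs), with an unadjusted p of 0.0269 and an adjusted p of 0.921 in limma. The coactivator Ncoa1 stood at -0.19 ± 0.24 (SD, n = 4 pairs) with an unadjusted p of 0.121. Fkbp5, a co-chaperone and another standard androgen target, stood at -0.20 ± 0.30 (SD, n = 4 pairs).

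**Figure D4:**
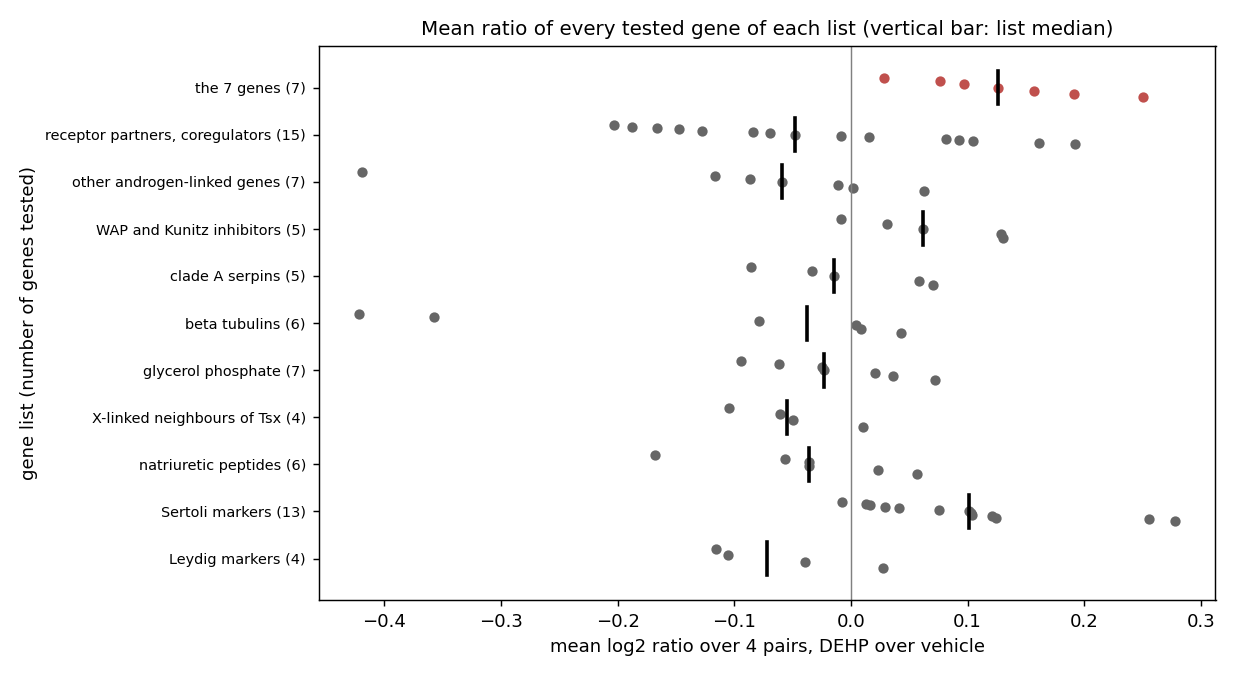
Mean log2 ratio of DEHP over vehicle over 4 pairs (horizontal axis) for every tested gene of each list (vertical axis, with the number tested), 1 point per gene, and a vertical bar at the list median. The 7 genes lie between 0.028 and 0.25, the median of the receptor partners and coregulators is -0.048, and Tubb2a and Tubb5 are the 2 lowest beta tubulins at -0.42 and -0.36.

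In the authors' deposited table, which holds 16095 rows, the mean log2 ratios over the 4 pairs were 0.20 for Spinlw1, 0.19 for Serpina5, 0.28 for Drd4, 0.21 for Corin and 0.090 for Tubb3, the last from 6 rows. In that table Tsx had no value for pair 1, and no row matched either Gpd1 probe.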

How the data were processed

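Expression was measured in 8 mice on 8 arrays with 2 colours. For every spot the deposited scanner output gives a mean foreground and a median background intensity with nothing subtracted, per the file headers. It also gives a log10 ratio (Cy5 to Cy3) that the extraction software made from processed signals, per the file headers. A further table holds the authors' log2 ratios of DEHP over vehicle. Their direction and row match were found from the values (rank correlation of 0.931 to 0.968 with the scanner ratios), array medians were -0.0022 to 0.012, and limma is named in the submitters' processing notes with no version. Its background correction and filter are not given in the sources used here.

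Intensities were corrected by normexp (offset 50) and normalised by loess within arrays. On 3 arrays, up to 12 spots with a background far above the spot (net signal under -20 in either channel) were left out, since they distorted the normexp fit. Spots of a probe were averaged, arrays turned to DEHP over vehicle and the 2 arrays of a pair averaged, as 1 replicate. Dye-swapped arrays of a pair correlated across probes by 0.593 to 0.731. Pairs come from the labels. A probe was kept if 4 or more of 8 DEHP channels, or of 8 vehicle channels, were well above background. Kept probes were tested in R 4.3.3 by limma 3.58.1 with statmod 1.5.0 and data.table in version 1.17.8, 2-sided, with Benjamini-Hochberg adjustment over 22972 probes at 0.05. The brightest tested probe of a gene was its main one. Mouse levels came from separate channels after Aquantile, averaged over a mouse's 2 arrays. Apart from the share of Insl3 in the Leydig sum, levels of different probes were not compared. The fit was tested on simulated data.

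The 7 genes, the lists and the rule for named genes (the 7 genes, per gene the 2 with the closest mouse levels, per list the 2 with the smallest p) were chosen with earlier results of these data known. Gpd2, Nppa, Rhox5, Fkbp5 and the marker genes are named beyond that rule, and 1 gene of the lists is not reported here. Alternatives covered background correction, normalisation, filter, dyes, pairing, weights, probes per gene, each pair left out and the deposited ratios.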

Additional observations from a re-analysis of the deposited data

Results flagged for a closer look

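Among 27 sets of 4 values (DEHP mouse levels, vehicle mouse levels and pair ratios of 9 probes) checked by Dixon's ratio (the gap of the end value to its neighbour over the whole range), 1 exceeded the 95% critical value, where chance flags about 1 in 20. It was the second Gpd1 probe, which was near background, in the DEHP mice, with a ratio of 0.91. Mouse 2 stood at 6.19 on the log2 scale and mice 1, 3 and 4 between 6.31 and 6.32. The main Gpd1 probe did not set DEHP mouse 2 apart.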

How the results depend on the processing

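No probe passed an adjusted p of 0.05 under the alternatives run, with 1 exception. With the replicate block (8 arrays, mouse pair as random block, consensus correlation 0.658), 1 probe passed, that of Fbxl12, named after its value was seen, with a log2 ratio of -0.57 and an adjusted p of 0.0352. Its adjusted p was 0.921 on pair means. The block changed no call of the 7 genes. Leaving out each pair in turn gave 0 to 0 probes past the threshold, with 718 (without pair 3) to 2564 (without pair 4) at an unadjusted p under 0.05 against 1192. None of the 7 genes passed under any of 126 combinations of gene and alternative (lowest adjusted p 0.337, Corin), and 7 reversed their sign. With each pair left out in turn Serpina5 ranged from -0.068 (without pair 2) to 0.35 and Tsx from -0.025 (without pair 4) to 0.076 (without pair 3). Drd4 ranged from 0.084 (without pair 2) to 0.42 (without pair 4), Spinlw1 from 0.070 (without pair 1) to 0.32 (without pair 4), Gpd1 from 0.019 (without pair 1) to 0.15 (without pair 3), Corin from 0.068 (without pair 1) to 0.19 (without pair 3) and Tubb3 from 0.034 (without pair 1) to 0.099 (without pair 3). Tubb3 stood at -0.067 with DEHP in Cy3 alone, and Corin at -0.00044 with DEHP in Cy5 alone. Tsx stood at -0.013 with DEHP in Cy5 alone, -0.0062 with array weights and -0.00024 without pair 1. The cause was not tested. The normexp fit to all spots, an alternative added after seeing the data, gave a median of 0.10 for the 7 genes, all above 0. It raised the mean log2 level over the 8 mice from 6.40 to 7.17 for Tsx, from 7.14 to 7.72 for Corin and from 8.09 to 8.47 for Tubb3, by more than the spread between mice, so the levels of these probes depend on that choice. The deposited ratios gave no fit for Gpd1 and Tsx. The second probes of Serpina5, Drd4 and Gpd1 were not well above background in every channel, and 4 pairs limit the size of difference that can be seen.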
